A study of Mus musculus with 88 samples.

Results

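The 9 genes described here are protein-coding genes of the myelinating oligodendrocyte, the cell that wraps axons of the central nervous system: Mbp, Mobp, Cldn11, Mag, Mog, Opalin, Cnp, Aspa and Ermn. They were taken by name as rows of a table of 55487 mouse genes, and all 9 passed the filter on low counts that left 25420 genes. Their levels were followed over 87 libraries of nucleus accumbens, the ventral part of the striatum, in 12 groups. Mice carried a D1-Cre or D2-Cre transgene on a C57BL/6 background, and every group, controls included, received a herpes simplex vector for a nuclease-dead Cas9 joined to CREB(S133D), a constitutively active form of the transcription factor CREB. A second vector carried a guide RNA to Fosb (g11, called targeted in the labels) or a non-targeted guide (gNT, called control), and tissue was taken 6 days after surgery. In the D1 arms the vectors depended on Cre and the mice were D1-Cre, in the D2 arms the vectors depended on Cre and the mice were D2-Cre, and in the D1-D2 arms the vectors did not depend on Cre and the labels give the mice as D1-Cre. Control and targeted libraries numbered 8 and 6 in the female D1 arm, 4 and 7 in the male D1 arm, 8 and 8 in the female D2 arm, 8 and 7 in the male D2 arm, 8 and 12 in the female D1-D2 arm and 7 and 4 in the male D1-D2 arm. Neither the age of the mice nor whether a library is 1 mouse or a pool is given by the labels, so p-values measure the spread between libraries.

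Myelin is a spiral of oligodendrocyte membrane whose compacted layers insulate the axon. Basic proteins such as Mbp hold the inner faces of the membrane together, tight-junction strands of Cldn11 seal the layers, and glycoproteins such as Mag and Mog sit at the innermost and outermost faces. The transcription factors Sox10 and Myrf switch on many of these genes when an oligodendrocyte precursor matures. The Cre-dependent vectors address medium spiny neurons, so that in these arms the oligodendrocytes were neighbours of the cells addressed and not the cells addressed. RNA was measured in whole tissue, where fewer oligodendrocytes and less RNA per oligodendrocyte cannot be told apart.

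Libraries held 12430387 to 69568367 counts (median 31393804), and single members had between 7 and 69352 counts in a library, so counting error is largest for Aspa and Opalin. In 4 libraries, all with the Fosb guide, 10 genes took over 90% of the counts. Batch is the sequencing batch given in the labels: 78 libraries were in batch 1 and 9, all male D2, in batch 2. Fosb itself, the gene addressed by the guide, passed the test in none of the 6 arms. Its group means lay between 4.51 and 10.7 CPM (counts scaled to the size of the library), and its log2 fold change between guides ran from -0.37 in the female D2 arm to 0.60 in the male D1-D2 arm (SE 0.23 and 0.27, each with an edgeR adjusted p of 1). The summed level of 14 genes of medium spiny neurons, the main neurons of the accumbens, had group means of 2700 to 4464 CPM. Markers of the Schwann cell, which makes myelin outside the brain, were low. Prx had a median of 0.534 CPM and Dhh 0.175, and Pmp2 had 24 counts over all libraries. Egr2 was higher, with a median of 5.78 CPM, and is also expressed by active neurons.

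Promoter sequence is shown for 3 members: Mag and Cnp, whose levels followed each other most closely, and Mobp, the closest member to Mbp. In batch 1, Ermn and Cldn11 (Pearson r = 0.86) and Mag and Cldn11 (0.85) were closer than Mbp and Mobp (0.80). The windows of Cldn11 and Ermn, which held neither of the SOX and MYRF motifs marked here, are not printed. RefSeq promoter windows (GRCm38.p6) of 300 bases, from 250 before to 50 after the annotated start, were used for 8 of the 9 members. No window of Mbp was searched, so the motif counts out of 8 leave Mbp out. Printed are the 200 bases from -250 to -51, in the direction of transcription. Capitals mark the SOX core ACAAAG, or CTTTGT where it lies on the other strand, and the MYRF core CTGGCAC.
Mag: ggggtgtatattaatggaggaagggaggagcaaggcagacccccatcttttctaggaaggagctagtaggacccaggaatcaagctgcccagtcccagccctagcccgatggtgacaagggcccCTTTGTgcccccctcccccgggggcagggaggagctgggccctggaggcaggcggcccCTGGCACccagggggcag
Cnp: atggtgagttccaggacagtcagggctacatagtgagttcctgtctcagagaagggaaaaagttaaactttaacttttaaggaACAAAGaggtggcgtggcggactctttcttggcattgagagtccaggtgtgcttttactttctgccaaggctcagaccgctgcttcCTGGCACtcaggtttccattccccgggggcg
Mobp: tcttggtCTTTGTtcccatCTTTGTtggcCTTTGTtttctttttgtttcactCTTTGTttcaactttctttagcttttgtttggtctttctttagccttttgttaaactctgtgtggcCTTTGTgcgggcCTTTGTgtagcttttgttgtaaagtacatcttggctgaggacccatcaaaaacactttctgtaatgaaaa
The Mag window is chr7:30914914-30915113 (minus strand), the Cnp window chr11:100574689-100574888 (plus strand) and the Mobp window chr9:120149492-120149691 (plus strand). Mag and Cnp each held 1 match to ACAAAG, with its first base at -126 and -167, followed by 1 match to CTGGCAC at -68 and -81. Mobp held 6 matches to ACAAAG between -243 and -120. Over the full windows and both strands, ACAAAG was found in 4 of 8 members (Mag, Cnp, Mobp and Opalin) and in 18.7% of 32851 promoters, and CTGGCAC in 3 of 8 (Mag, Cnp and Opalin) and in 5.01%. The E-box CAGCTG was in 2 of 8 (Aspa and Opalin) and 16.3%, the SOX core ACAATG in 1 of 8 (Ermn) and 12.6%, TATAAA in 1 of 8 (Aspa) and 13.6%, and TGACGT, the core of the CREB site, in 2 of 8 (Ermn and Mog) and 7.51%. TGACTCA, the AP-1 site that FosB dimers bind, was in 0 of 8 windows and in 5.20% of promoters, which says only that these letters are not in these windows. The TATAAA matches of Aspa at -209 and -207 overlap. The RefSeq start used for Aspa lies 4959 bases from the start of its GENCODE gene model, so its matches are to an internal start of that model, while the other 7 starts lie within 35 bases of theirs. The matches are a description of the letters and not evidence of binding.

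Per kilobase of exon, Mbp, the main basic protein of compact myelin, was highest with 102 ± 34.9 CPM per kb (SD, n = 87), followed by Cnp, a phosphodiesterase of the cytoplasm-filled channels of myelin, with 98.2 ± 24.4. Cldn11, the tight-junction protein of myelin, had 83.4 ± 25.7, Mobp, a second basic protein, 48.0 ± 18.9, and Mag, an adhesion glycoprotein of the membrane next to the axon, 40.6 ± 13.0. Mog, the glycoprotein of the outer face, had 28.5 ± 7.52 CPM per kb and Ermn, an actin-binding protein of mature oligodendrocytes, 27.2 ± 9.07. Opalin, a membrane glycoprotein of the oligodendrocyte, had 8.14 ± 2.39, and Aspa, the enzyme that splits N-acetylaspartate, 2.98 ± 0.893. Neighbours in this order were not always apart. Mbp was above Cnp in 45 of 87 libraries, Mobp above Mag in 56 and Mog above Ermn in 53, while Ermn was above Opalin and Opalin above Aspa in all 87.

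**Figure D1:**
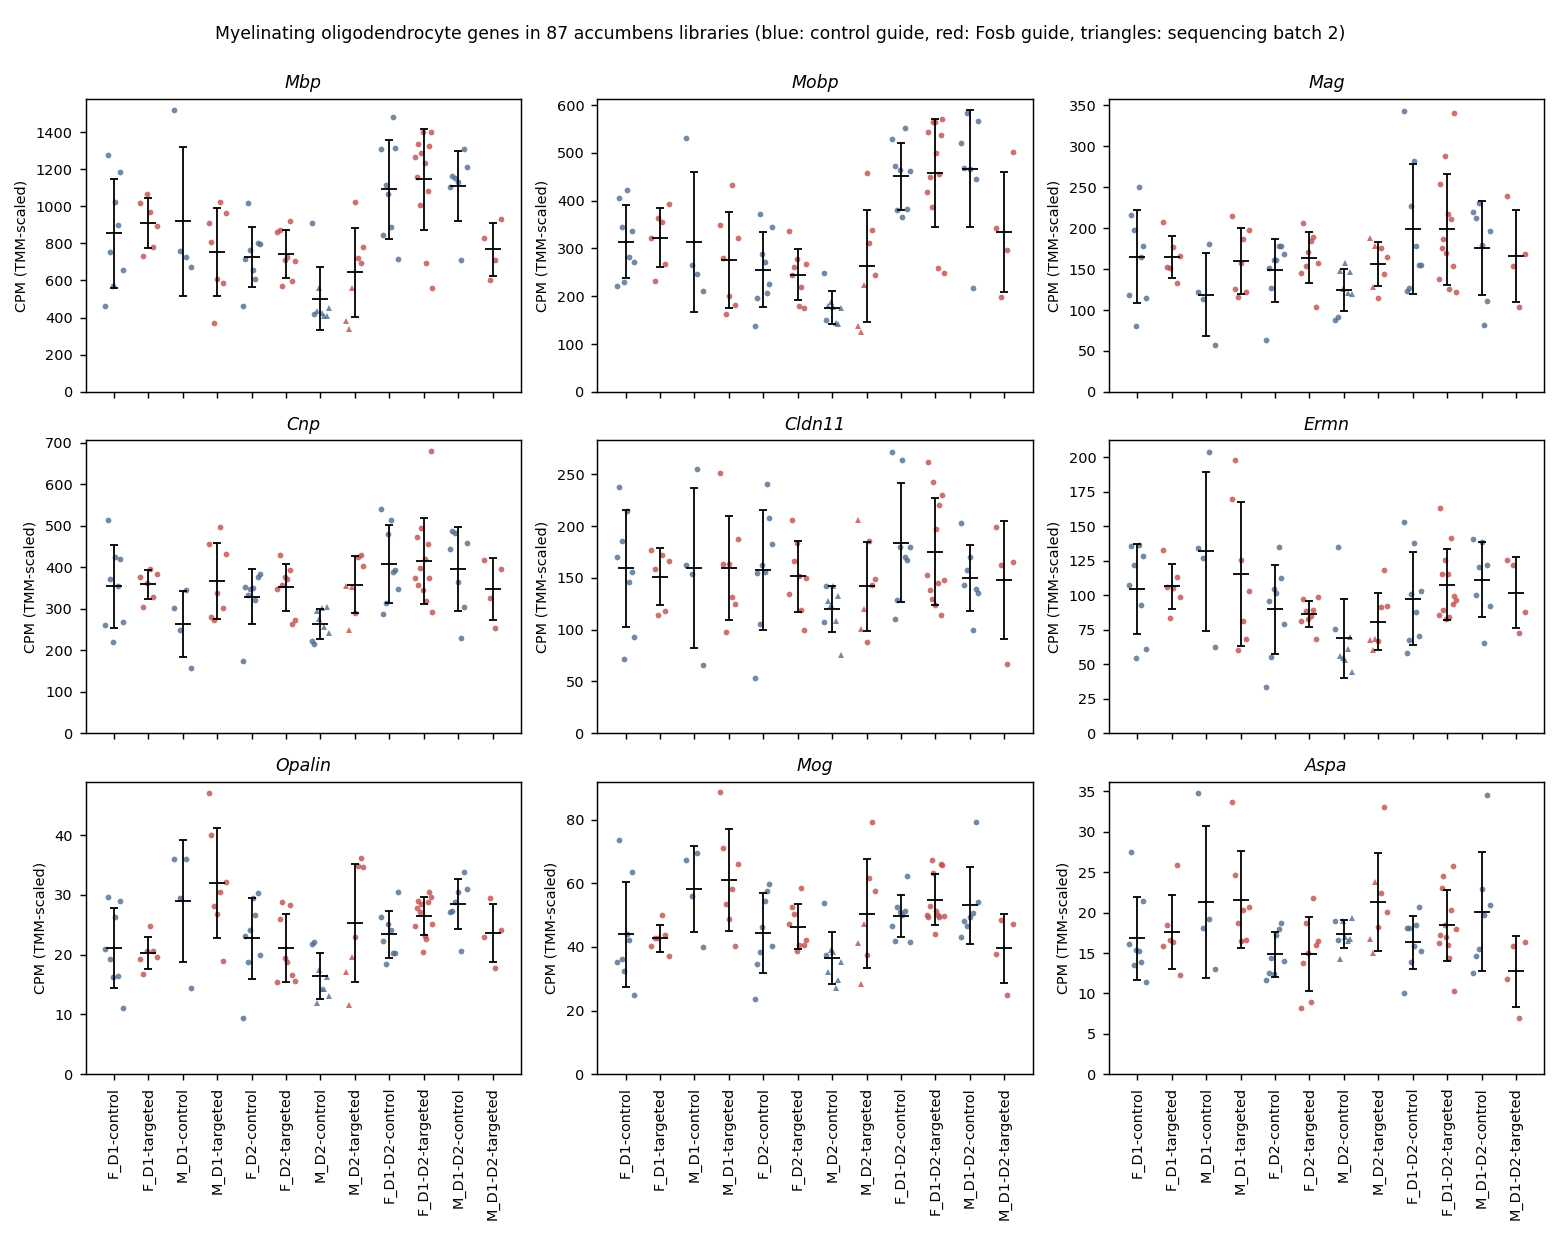
Level of each of the 9 genes in 87 libraries (vertical axis, TMM-scaled CPM from 0) by group (horizontal axis). Points are libraries, blue for the control guide and red for the Fosb guide, triangles are batch 2, and black bars are the group mean ± SD. Control and targeted libraries of an arm overlap for every gene, and male D2 libraries of batch 2 sit low for Mbp, Mobp, Ermn and Opalin.

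Within a gene, levels varied 3.73- to 6.08-fold between the lowest and the highest library. Mbp ran from 337 CPM in male D2 targeted library 2756 to 1517 CPM in male D1 control library 17789, and its group means were 503 ± 172 CPM in male D2 controls (SD, n = 8), 644 ± 239 in male D2 targeted (n = 7), 727 ± 162 in female D2 controls (n = 8), 744 ± 129 in female D2 targeted (n = 8), 753 ± 239 in male D1 targeted (n = 7) and 768 ± 143 in male D1-D2 targeted libraries (n = 4). It had 854 ± 293 CPM in female D1 controls (n = 8), 909 ± 133 in female D1 targeted (n = 6), 919 ± 400 in male D1 controls (n = 4), 1091 ± 266 in female D1-D2 controls (n = 8), 1111 ± 189 in male D1-D2 controls (n = 7) and 1145 ± 271 in female D1-D2 targeted libraries (n = 12). Each of these 11 steps between neighbours was smaller than the larger of the 2 SDs, as it was for every other member except for 1 step each in Mobp and Opalin. The lowest and highest groups overlapped in every gene but Aspa, which had at most 16.4 CPM in male D1-D2 targeted and at least 16.5 CPM in male D1 targeted libraries. The lowest group mean was male D2 control for Mbp, Mobp, Cldn11, Mog, Ermn and Opalin, male D1 control for Mag and Cnp, and male D1-D2 targeted for Aspa. This order mixes batch with group, since 6 of the 8 male D2 controls were in batch 2. The 2 male D2 controls of batch 1 had means of 45.6 CPM for Mog, 105 for Ermn and 21.9 for Opalin, and the 6 of batch 2 had 33.6, 56.5 and 14.5. For Mbp the means were 665 and 449 CPM, for Mobp 200 and 168 and for Cldn11 125 and 118. For Mag they were 90.1 and 136 CPM and for Cnp 218 and 279. Male D1 controls, all of batch 1, had 118 CPM of Mag and 263 of Cnp, above the male D2 controls of that batch. The highest was a D1-D2 group for Mbp, Mobp, Mag, Cnp and Cldn11, male D1 targeted for Mog, Opalin and Aspa, and male D1 control for Ermn. The ratio of the highest to the lowest group mean was 2.65 for Mobp, 2.28 for Mbp and 1.53 to 1.95 for the other 7 genes. The biological coefficient of variation of the members in the edgeR fit was 0.223 to 0.315, and between 57.7% (Mbp) and 89.4% (Cldn11) of genes of like level varied less.

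The members lie on 8 chromosomes in the GRCm38 (mm10) build with GENCODE M21 gene models. Mbp spans chromosome 18 from 82475146 to 82585637 on the plus strand with 13 merged exons. Mobp lies on chromosome 9 (120149707 to 120181484, plus strand, 8 exons) and Cldn11 on chromosome 3 (31149920 to 31164324, plus strand, 3 exons). Mag lies on chromosome 7 (30899176 to 30914873, minus strand, 12 exons), Mog on chromosome 17 (37010743 to 37023398, minus strand, 8 exons) and Opalin on chromosome 19 (41061710 to 41077113, minus strand, 6 exons). Cnp and Aspa are both on chromosome 11, at 100574904 to 100591729 (plus strand, 6 exons) and at 73304992 to 73329596 (minus strand, 10 exons). Ermn lies on chromosome 2 (58045113 to 58052864, minus strand, 3 exons). Values are summed over all exons of a gene. Exons of Cnp share 154 bases (4.23% of its exon length) with Dnajc7 and exons of Ermn share 237 bases (6.52%) with Galnt5, each on the opposite strand. Exons of Mobp share 79 bases (1.15%) with Gm38642 on the same strand. The strand setting of the counting is not given, so reads in these stretches cannot be assigned with certainty.

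The guide to Fosb was compared with the control guide in each arm by edgeR's quasi-likelihood test. No member passed in any arm. In the female arms the estimates were small. In the female D1 arm Mbp had 464, 826 and 1277 CPM in controls (lowest, median, highest of 8) and 731, 929 and 1068 in targeted libraries (6), a log2 fold change of 0.09 (SE 0.20), and the 9 members ran from -0.08 (Cldn11) to 0.09 (Mbp). All of these ranges overlapped. The members ran from -0.07 (Opalin) to 0.14 (Mag) in the female D2 arm and from -0.06 (Cldn11) to 0.17 (Opalin) in the female D1-D2 arm. Members called numbered 0 of 9 in each, beside 0.00393% of all genes tested in the female D1 arm and 0% in the female D2 and D1-D2 arms. The SE of a member in the female arms was 0.15 to 0.25.

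**Figure D2:**
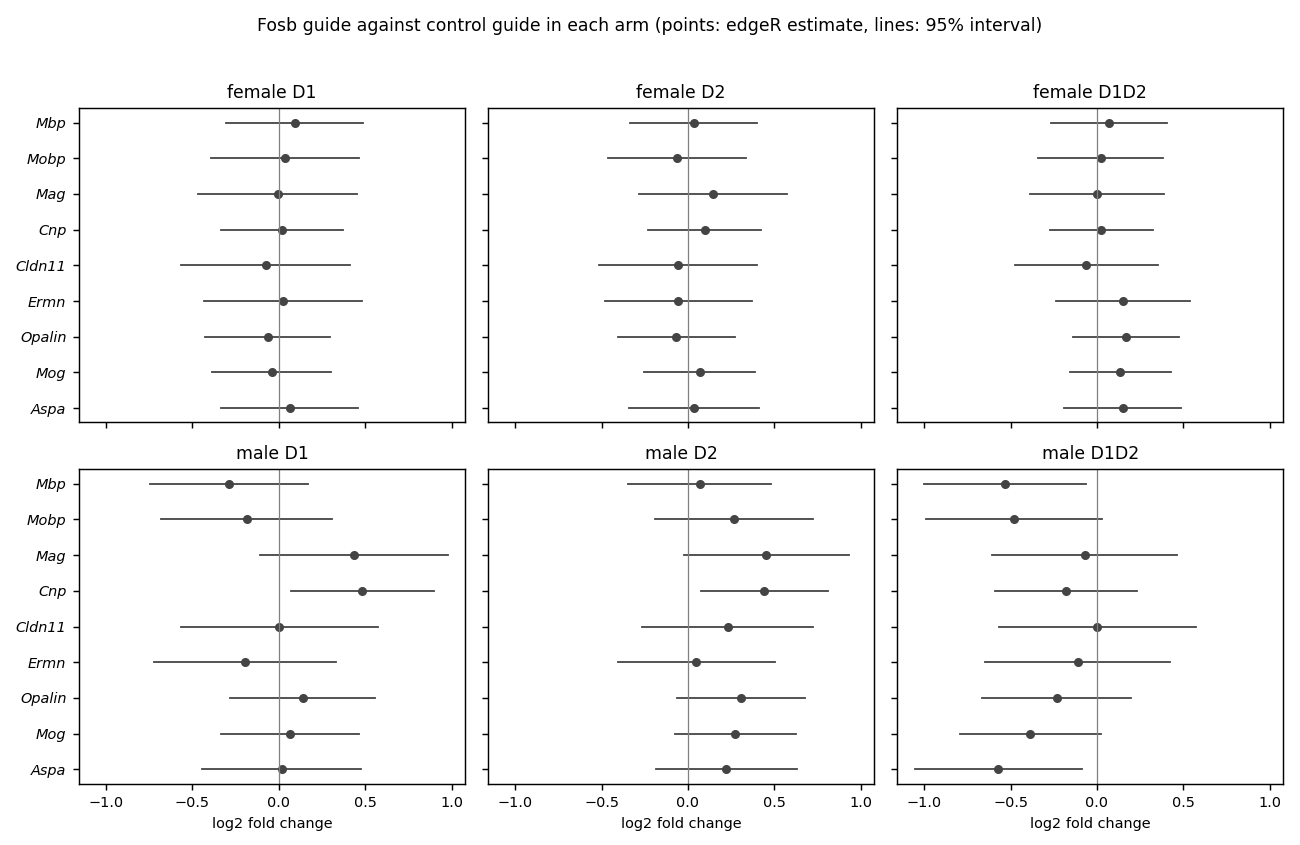
Log2 fold change of each gene with the Fosb guide against the control guide (horizontal axis) in the 6 arms, as the edgeR estimate (points) with its 95% interval (lines). No gene has an adjusted p under 0.05. Estimates in female arms lie between -0.08 and 0.17, all 9 are above 0 in the male D2 arm and 8 of 9 are below 0 in the male D1-D2 arm.

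Estimates in the male arms were larger and differed between arms in sign. In the male D2 arm all 9 members were above 0, with a median of 0.27 beside 0.01 over all genes tested. Of all 25420 genes 13394 were above 0. The members moved together across libraries, so in any arm their signs are not independent results. Cnp had a log2 fold change of 0.44 (SE 0.19, p = 0.0194, edgeR adjusted p = 1) and Mag 0.45 (SE 0.24, adjusted p = 1), and 0.0629% of all genes passed. Batches were unequal here, with 2 control and 4 targeted libraries in batch 1 and 6 and 3 in batch 2, and the fit carried a term for batch. In batch 1 Cnp had 214 and 222 CPM in the controls and 289, 404, 425 and 430 CPM in the targeted libraries, which did not overlap. In batch 2 it had 241, 256, 275, 295, 303 and 305 CPM in the controls and 249.5, 352 and 356 CPM in the targeted libraries, which overlapped. Fitted within batch 1 alone, the Cnp estimate was 0.80 (SE 0.20) and the Mag estimate 0.71 (SE 0.20), and 8 of 9 members were above 0. Within batch 2 alone, Cnp had 0.18 (SE 0.14) and Mag 0.26 (SE 0.14), and 7 of 9 were above 0. No gene passed within a batch. Microglia genes moved the same way in this arm, with 8 of 10 above 0 and 0 of 10 passing. In batch 1 their summed level was 486 and 1239.7 CPM in the 2 controls and 1622 to 2336 CPM in the 4 targeted libraries, which did not overlap, and in batch 2 it was 609.5 to 1327 CPM in the 6 controls and 711 to 1089 CPM in the 3 targeted libraries, which overlapped. Their part in the result was not tested. Groups of 2 and 4 libraries can lie apart by chance, for Cnp as for the microglia sum. The share of all genes that lay apart in batch 1 was not counted.

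In the male D1-D2 arm 8 of 9 members were below 0, with a median of -0.23 beside -0.03 over all genes tested, and 0.00393% of all genes passed. Aspa had 12.6, 19.7 and 34.6 CPM in controls (lowest, median, highest of 7) and 6.93, 11.8, 15.9 and 16.4 CPM in the 4 targeted libraries, a log2 fold change of -0.57 (SE 0.24, p = 0.0208, edgeR adjusted p = 1). Mbp had 709, 1151 and 1308 CPM in controls and 600, 713, 828 and 931 CPM in targeted libraries (-0.53, SE 0.24, p = 0.0274, edgeR adjusted p = 1). The ranges overlapped for both genes. Mobp had -0.48 (SE 0.26), Mog -0.39 (SE 0.21) and Cldn11 0.00 (SE 0.29). Targeted library 18919, in which 10 genes took 94.4% of the counts, was the lowest of its group in 7 of 9 members, and without it 3 of 9 members were above 0, with Aspa at -0.45 and Mbp at -0.49. Lists of other cells lay to 1 side of 0 in this arm as well, with 10 of 10 astrocyte genes below 0 (median -0.09), 10 of 11 cortical neuron genes below 0 (median -1.47) and 14 of 14 medium spiny neuron genes above 0 (median 0.19). None of these genes passed, and their part in the result was not tested.

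In the male D1 arm 6 of 9 members were above 0, with a median of 0.02 beside 0.03 over all genes, and 0% of genes passed. Cnp had 158, 248, 301 and 345 CPM in the 4 controls and 272, 337 and 497 CPM in targeted libraries (lowest, median, highest of 7), a log2 fold change of 0.48 (SE 0.21, p = 0.0228, edgeR adjusted p = 0.686). Mag had 57.3, 113, 122 and 181 CPM in the controls and 116, 158 and 215 CPM in targeted libraries (0.44, SE 0.27). Mbp, in contrast, was at -0.29 (SE 0.23) and Mobp at -0.19 (SE 0.25). Control library 18383 was the lowest of its group in all 9 members, and without it 2 of 9 members were above 0, with Cnp at 0.30.

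Over the mean of the 6 arms the members lay between -0.09 (Mbp, SE 0.08) and 0.16 (Mag, SE 0.10), with a median of 0.01 beside 0.00 over all genes. Cnp was the closest to the threshold (0.15, SE 0.07, p = 0.0505, edgeR adjusted p = 0.525), and 0% of all genes passed. No member passed in the test of the difference in guide effect between female and male arms, which ran from -0.23 (Mag) to 0.31 (Mbp, SE 0.17, p = 0.0647, edgeR adjusted p = 0.737), or between D1 and D2 arms, where it ran from -0.18 (Mobp) to -0.02 (Cnp). In these comparisons 0% and 0.00393% of all genes passed.

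No other gene of the oligodendrocyte lineage lists passed in any arm. Over the mean of the 6 arms, 0 of 30 further myelin genes, 0 of 10 lineage transcription factors, 0 of 17 genes of myelin lipid synthesis, 0 of 8 genes of newly formed oligodendrocytes, 0 of 10 precursor genes and 0 of 10 genes of the Nogo receptor system, which reads Mag as an inhibitor of axon growth, passed. The smallest p in each list belonged to Hapln2, a matrix protein of the node of Ranvier (0.18, SE 0.09), Myrf (0.27, SE 0.12), Idi1, an enzyme of cholesterol synthesis (-0.19, SE 0.09), Rras2, a small GTPase (-0.12, SE 0.08), Cspg4, the NG2 proteoglycan of precursors (0.19, SE 0.10), and Lrp1, an endocytic receptor (0.15, SE 0.07). Their edgeR adjusted p-values lay between 0.518 and 0.580. Among markers of other cells, 6 of 10 microglia genes had an unadjusted p under 0.05, as did 2419 of all 25420 genes, and 0 of 10 passed, with Cx3cr1, a chemokine receptor of microglia, at 0.21 (SE 0.08, adjusted p = 0.516). Among the other lists Egr2 (0.27), Drd2 (0.08), Neurod1 (-0.89), Slc17a6 (-0.49), Slc1a3 (0.25), Cldn5 (-0.17) and Ttr (-1.82), a gene of the choroid plexus, had the smallest p, and none passed.

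Between female and male controls, averaged over the 3 kinds of arm, 2 members passed and moved in opposite directions. Mag was higher in females and Aspa lower. In this comparison 28.6% of all genes passed (15.3% higher in females, 13.2% lower), so 2 of 9 is near the background. Mag had 80.9, 172 and 250 CPM in female D1 controls (lowest, median, highest of 8), 62.9, 161 and 178 in female D2 controls (8) and 123, 167 and 343 in female D1-D2 controls (8). In males it had 57.3, 113, 122 and 181 CPM in D1 controls (4), 88.2, 123 and 158 in D2 controls (8) and 82.3, 197 and 231 in D1-D2 controls (7). Female and male ranges overlapped in every kind of arm, and the log2 difference was 0.40 (SE 0.15, edgeR adjusted p = 0.0398). Aspa had 11.4, 15.3 and 27.5 CPM in female D1 controls, 11.6, 14.2 and 18.7 in female D2 controls and 10.1, 17.0 and 20.7 in female D1-D2 controls. In males it had 13.0, 18.1, 19.2 and 34.8 CPM in D1 controls, 14.2, 16.9 and 19.4 in D2 controls and 12.6, 19.7 and 34.6 in D1-D2 controls. Its ranges overlapped as well, and the log2 difference was -0.34 (SE 0.13, adjusted p = 0.0342). Without male D1 control library 18383 Mag was at 0.32 (adjusted p = 0.103), and without library 17789 Aspa was at -0.20 (adjusted p = 0.229). Batch 2 holds male D2 libraries alone, and with no batch term 0 of 9 members passed, with Mag at 0.30 (adjusted p = 0.103) and Aspa at -0.29 (adjusted p = 0.0627). With limma-voom 1 of 9 passed, which was Opalin (-0.37, adjusted p = 0.0141). Cnp was at 0.27 (SE 0.12, adjusted p = 0.0711), Opalin at -0.28 (SE 0.12, adjusted p = 0.0549) and Mbp at -0.05 (SE 0.13).

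Of all genes, 15.3% passed as higher in females and 13.2% as lower in this comparison of controls. Of 10 precursor genes all 10 were above 0 and 5 passed, all higher, among them Cspg4 (0.65, SE 0.15), Pdgfra, the growth factor receptor of precursors (0.43, SE 0.11), Sox6 (0.35, SE 0.11) and Matn4 (0.48, SE 0.17). Of 10 lineage transcription factors 4 passed, all higher: Sox10 (0.65, SE 0.17), Olig1 (0.45, SE 0.12), Olig2 (0.39, SE 0.13) and Sox8 (0.31, SE 0.12). Of 30 further myelin genes 4 were higher, among them Carns1 (0.42), Cntn2 (0.46) and Gsn (0.51), and 2 lower, among them Ppp1r14a (-0.36). Of 8 genes of newly formed oligodendrocytes 3 were higher, among them Gpr17 (0.74), a receptor of that stage, and Rras2 was lower (-0.33). Of 17 lipid genes 4 were higher, among them Lss (0.28), and Idi1 was lower (-0.42), and of 10 Nogo system genes 4 were higher, among them Ngfr (0.96) and Lrp1 (0.37). Lists of other cells moved too, with 5 of 14 medium spiny neuron genes, 4 of 10 astrocyte genes, 4 of 8 vessel genes and 2 of 10 microglia genes higher, and their part in the result was not tested. The medians were 0.30 over the precursor genes, 0.23 over the transcription factors and -0.05 over the members, beside 0.00 over all genes. Mean summed levels of the precursor list were 452, 418 and 442 CPM in female D1, D2 and D1-D2 controls and 301, 441 and 448 CPM in males. Male D2 controls had 298 CPM in batch 1 (2 libraries) and 489 in batch 2 (6). The transcription factors had 212, 193 and 218 CPM in females and 148, 214 and 223 in males. Male D2 controls had 135 CPM of the transcription factors in batch 1 (2 libraries) and 240 in batch 2 (6). With batches pooled, male D1 controls were thus the lowest control group in both lists. Within batch 1 the 2 male D2 controls had lower means in both.

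**Figure D3:**
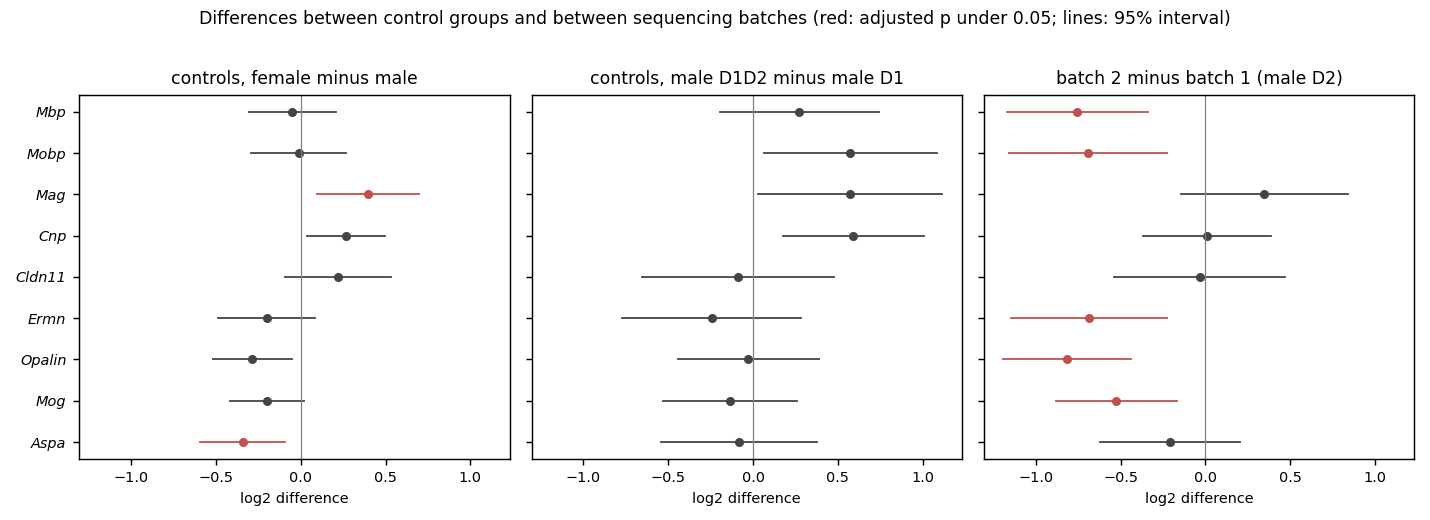
Log2 difference of each gene (horizontal axis) between female and male controls, between male D1-D2 and male D1 controls and between sequencing batches, as the edgeR estimate (points) with its 95% interval (lines). Red marks an adjusted p under 0.05, which Mag and Aspa reached in opposite directions between the sexes and Mbp, Mobp, Ermn, Opalin and Mog reached, all lower, in batch 2.

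A property of the libraries moved with this comparison. For each library, the correlation across 10648 genes of at least 10 CPM between a gene's GC content and its deviation from the mean was taken as a measure of GC dependence. Its mean was -0.26 in male D1 controls (range -0.36 to -0.18, 4 libraries) and 0.06 to 0.10 in the 3 female control groups. Male D1-D2 controls lay next to the females, with a mean of 0.04 (range -0.24 to 0.31, 7 libraries). Male D2 controls had -0.06 and -0.45 in the 2 libraries of batch 1 and -0.04 to 0.04 in the 6 of batch 2. Mag has the highest exonic GC content of the members (56.7%) and Aspa the second lowest (39.7%). With this measure as a covariate, the Mag difference was 0.10 and the Aspa difference -0.07, 0 of 9 members passed, and the number of genes that passed fell from 7259 to 612. The measure comes from the same counts and moved with lists of cells in batch 1. Its r was 0.65 with the precursor genes and 0.55 with the astrocyte genes. Such a covariate can also take up differences in cell content, and the part of the measure in the result was not tested.

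Controls of different arms were compared within a sex. D1-D2 and D1 controls differ in the Cre dependence of the vectors, and D2 and D1 controls in the Cre line. Between male D1-D2 and male D1 controls, 0 of 9 members and 10.1% of all genes passed (7.53% higher and 2.56% lower). Cnp was at 0.59 (SE 0.21, edgeR adjusted p = 0.0553), Mobp at 0.57 (SE 0.26, adjusted p = 0.136) and Mag at 0.57 (SE 0.27, adjusted p = 0.169), while Ermn was at -0.24 (SE 0.26). Of 10 transcription factors 4 passed, all higher (Myrf 1.20, Sox10 1.13, Olig2 0.77 and Olig1 0.69), and of 10 precursor genes 4 passed, all higher (Cspg4 1.13, Pdgfra 0.82, Ptprz1 0.68 and Sox6 0.65). Of the remaining lineage lists Gpr62 (0.45) and Sirt2 (0.76), Fa2h (0.77) and Lss (0.47), and Gpr17 (1.05) and Fyn (0.39) were higher, and of the Nogo system Lrp1 (0.63). Among other cells 4 of 10 astrocyte genes passed, all higher. The summed level of the precursor list was 258 to 337 CPM in the 4 male D1 controls and 288 to 584 CPM in the 7 male D1-D2 controls. The GC measure differed between these groups as well, and with it as a covariate Cnp was at 0.26, Mobp at 0.25 and Mag at 0.11. Its part was not tested here either. In the other control comparisons 0 of 9 members passed. Between female D1-D2 and female D1 controls Mobp was at 0.52 (SE 0.20, p = 0.0112, edgeR adjusted p = 1), where 0.00393% of all genes passed, and between D2 and D1 controls the members ran from -0.30 to 0.10 in females and from -0.48 to -0.00 in males, where 0.0197% (0.00787% higher and 0.0118% lower) and 0% of genes passed.

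Sequencing batch moved many genes, members among them. In male D2 libraries, the only groups with both batches, 5 of 9 were lower in batch 2 and none higher. Of all genes 62.3% passed (29.7% lower and 32.6% higher), so 5 of 9 passing is near the background. Opalin was lower by the most (-0.81, SE 0.19, edgeR adjusted p = 0.000133), with 21.7 and 22.2 CPM in the 2 batch 1 controls and 11.96 to 17.4 CPM in the 6 batch 2 controls. Mbp (-0.76, SE 0.21), Mobp (-0.69, SE 0.23), Ermn (-0.69, SE 0.23) and Mog (-0.53, SE 0.18) were lower too. Cnp (0.01, SE 0.19), Cldn11 (-0.03, SE 0.25) and Aspa (-0.21, SE 0.21) did not pass, nor did Mag (0.35, SE 0.25). Myrf was higher in batch 2 (1.58, SE 0.31). Of the 30 further myelin genes 9 were higher and 8 lower, with Plekhb1 at -1.52 and Ninj2 at 1.65, and of the 11 cortical neuron genes 4 were higher and all 11 above 0. Whatever else differed between the mice of these batches cannot be told apart from sequencing.

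Across libraries, the members rose and fell together, but not as a single block. In the 78 libraries of batch 1, with the group means removed, 35 of the 36 pairs had a Pearson r above 0 and 31 had an adjusted p under 0.05 by a two-sided permutation test (100000 resamples, Benjamini-Hochberg over the 36 pairs), as did 27 by Spearman's rho. The median r was 0.53. The share of other gene pairs of like level that would pass this test was not counted in either batch. The counts of pairs passing therefore do not show that the members are closer to each other than other genes are. The tightest pair was Mag and Cnp, an adhesion protein and an enzyme of non-compact myelin, with r = 0.93 and rho = 0.93 (permutation p = 1e-05 each, the smallest that the resamples can give, adjusted p = 1.8e-05 for r) and r = 0.92 without the 2 libraries farthest from the median. Ermn and Cldn11 followed (r = 0.86), then Mag and Cldn11 (0.85), Mbp and Mobp (0.80), Mog and Opalin (0.78) and Cnp and Cldn11 (0.77). The basic proteins Mbp and Mobp were less close to the cytoskeletal and junctional genes, with r = 0.25 for Mbp and Ermn and 0.28 for Mbp and Cldn11. Aspa was close to Mog (0.67) and Opalin (0.53) and apart from Mag (r = -0.01, rho = -0.04, permutation p = 0.951) and Cnp (r = 0.06). No r moved by more than 0.0985 without the 2 farthest libraries.

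**Figure D4:**
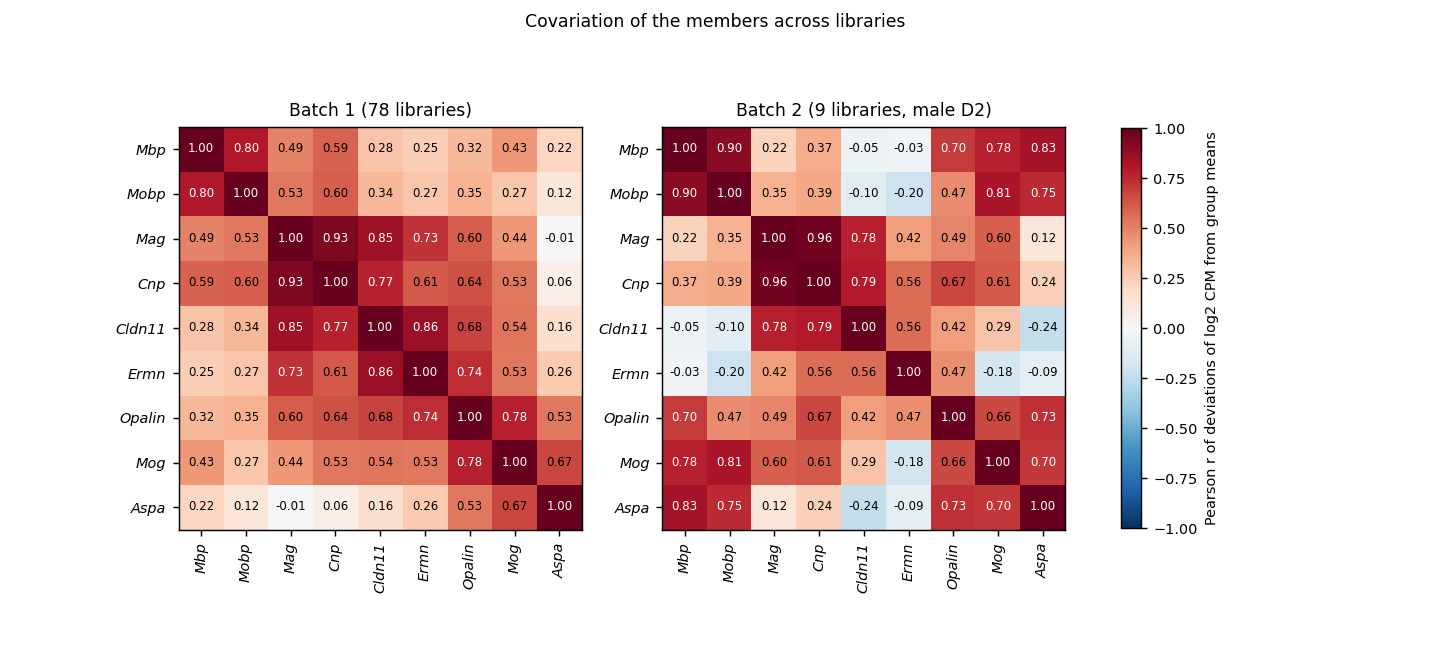
Pearson r (colour and number) between members across the 78 libraries of batch 1 and the 9 libraries of batch 2, as deviations of log2 CPM from group means. In batch 1 Mag, Cnp, Cldn11 and Ermn lie close together (r = 0.61 to 0.93), and Opalin has r = 0.60 to 0.74 with these genes and 0.78 with Mog. Mbp and Mobp form a pair, and Aspa is closest to Mog. The pairs Mag and Cnp and Mbp and Mobp are the closest in batch 2.

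In the 9 libraries of batch 2, 29 of 36 pairs were above 0 with a median r of 0.48, and 2 had an adjusted p under 0.05 over all 362880 orders. These were Mag and Cnp (r = 0.96, rho = 0.87, permutation p = 0.000176) and Mbp and Mobp (r = 0.90, rho = 0.93, permutation p = 5.51e-05). With group means removed, the deviations of a group sum to 0 and are not freely interchangeable, so permutation p-values in both batches are approximate. Mbp and Aspa had r = 0.83 there and 0.22 in batch 1, and Ermn and Cldn11 0.56 and 0.86. These differences between batches were not tested.

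**Figure D5:**
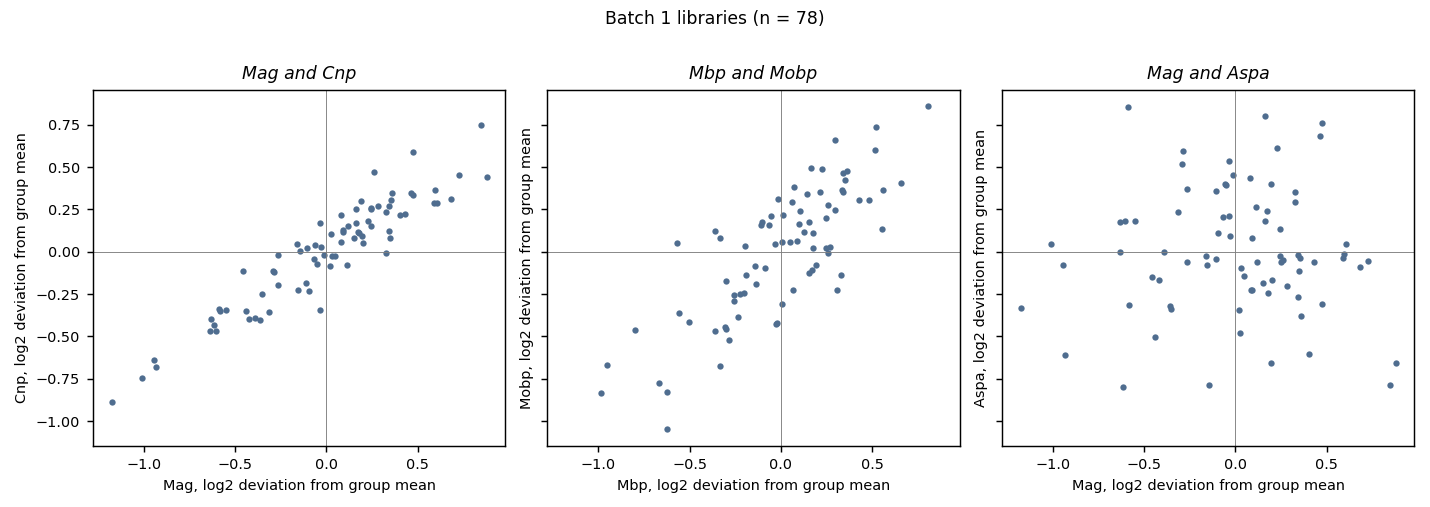
Deviation of log2 CPM from the group mean in the 78 batch 1 libraries (points) for 3 pairs of members, with the first gene on the horizontal axis and the second on the vertical. Mag and Cnp lie along a line (r = 0.93), Mbp and Mobp scatter more (r = 0.80) and Mag and Aspa show no relation (r = -0.01).

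The GC measure moved with some members and not with others. Across the 78 libraries its Pearson r was 0.54 with Mag (rho 0.55) and 0.53 with Cnp (rho 0.53), 0.43 with Mobp and 0.37 with Mbp, and -0.58 with Aspa (rho -0.59). These 5 passed, with adjusted permutation p-values over the 9 genes of up to 0.00151 (Mbp), and without the 2 farthest libraries they ran from -0.57 (Aspa) to 0.51 (Mag). Mog (-0.17), Opalin (-0.06) and Ermn (-0.04) did not pass, and Cldn11 passed by rho (0.26, adjusted permutation p = 0.0326) but not by r (0.23, adjusted permutation p = 0.0607). Ermn, with the lowest GC content of the members (38.0%), thus did not follow Aspa. The members are among the genes that the measure is built from. By its definition, genes of high GC content tend to follow it and genes of low GC content to run against it. The share of all genes that would pass was not counted. With the measure regressed out, the median r over the 36 pairs was 0.55, Mag and Cnp had r = 0.91, and Mag and Aspa came to 0.45.

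All 9 members were above their group mean in 5 libraries and all 9 below in 10. Female D2 control library 17906 and male D1 control library 18383 were the lowest of their groups in all 9, with mean deviations of -0.96 and -0.73 on the log2 scale. In library 18383, 10 genes took 56.2% of the counts, and in library 17906 14.8%. Male D1 targeted library 18130 was above its group mean in all 9 and the highest of its group in 5, and female D1 control library 16585 in all 9 and highest in 6. Without both 17906 and 18383 the pair of Mbp and Mog, for example, had r = 0.39 in place of 0.43.

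Mog was set against 17 measures of the libraries in batch 1. It followed the mean of the 30 further myelin genes (r = 0.62, rho = 0.54, permutation p = 1e-05, adjusted p = 0.00017) and ran against the Nogo system genes (r = -0.32, rho = -0.33, permutation p = 0.00466, adjusted p = 0.0396), and no other measure passed. In the 9 libraries of batch 2 the r was 0.76 with the further myelin genes and 0.57, of the opposite sign, with the Nogo system genes. Without the 4 libraries dominated by 10 genes the r with the Nogo system was -0.29 (adjusted permutation p = 0.113). The r was 0.24 for the transcription factors, 0.09 for the precursor genes, 0.02 for microglia, -0.20 for medium spiny neurons, -0.25 for cortical neurons, 0.02 for log10 total counts and -0.06 for the share of counts in the 10 most abundant genes. Mag and Cnp stood closer to other lists, given here without a test: with the precursor genes 0.69 and 0.74, with the transcription factors 0.84 and 0.82, with microglia 0.70 and 0.65 and with cortical neurons -0.42 and -0.49. Aspa had -0.21 with precursor genes and -0.24 with microglia. These lists themselves moved with the GC measure (r = 0.65 for precursor genes and 0.44 for microglia).

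Genes whose levels were most like the members were found by the mean r with the 9 over the batch 1 libraries, among 14322 genes of at least 1 CPM, whose median was 0.02. Among the 12 highest were Slc44a1, a choline transporter (0.63), S1pr5, a sphingosine phosphate receptor (0.62), Tmem88b (0.61), Enpp2, which makes lysophosphatidic acid (0.60), Car2, a carbonic anhydrase (0.59), Elovl7, a fatty acid elongase (0.59), Gpr37, an orphan receptor (0.58), Mcam (0.58), Lpar1, a receptor for lysophosphatidic acid (0.57), Serinc5 (0.57) and Gjb1, a gap junction protein of oligodendrocytes (0.56). In batch 2 the same mean r of those named was 0.41 (Car2) to 0.66 (Tmem88b). Among the 8 lowest were Dgkg (-0.45), Thrsp (-0.43), Ypel1 (-0.41), Kcnh1, a potassium channel (-0.41), Zfp385b (-0.41), Islr2 (-0.41) and Slit2, an axon guidance ligand (-0.41), and in batch 2 these lay between -0.12 (Zfp385b) and 0.25 (Kcnh1). By list, the median mean r was 0.49 for the further myelin genes, 0.39 for the transcription factors, 0.30 for the precursor genes, 0.30 for microglia, -0.18 for lipid synthesis and -0.30 for cortical neurons. All points share their libraries, depth and scaling.

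Single members had different closest genes, which were picked after their values were seen. Beside other members, Bcas1, a marker of newly formed myelinating cells, was close to Mobp (r = 0.89) and Mbp (0.86), and Prr18 to Mbp (0.87). Plxnb3 (0.91) and Erbb3, a neuregulin receptor (0.89), were close to Mag and Serinc5 (0.92) to Cnp. Slc44a1 (0.90) and Trf, transferrin (0.86), were close to Cldn11, and Il33, an alarmin (0.91), and Cryab, a small heat shock protein (0.88), to Ermn. Ugt8a, which makes galactosylceramide, was close to both Mog (0.77) and Aspa (0.74), and Rnf13 to Aspa (0.83). In batch 2 the same r was 0.90 for Ugt8a with Mog, 0.95 for Prr18 with Mbp, 0.72 for Il33 with Ermn and 0.23 for Rnf13 with Aspa.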

How the data were processed

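RNA of mouse nucleus accumbens was sequenced as ribosomal RNA-depleted stranded libraries. The authors deposited read counts per gene, whole numbers with no normalization. Tools listed in the submitters' processing notes are HISAT2, Trim Galore, featureCounts (Subread), SAMtools and DESeq2 1.27, and the build is mm10. No annotation or strand setting was given in the sources used here. Columns were matched to labels by the number in the title. Of 88 labelled libraries 87 had a column and 1 was not analysed here, and 1 column that matched no label was not used. Gene symbols came from a mouse annotation table (93 identifiers had none) and exon lengths and GC content from GENCODE M21.

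The counts were modelled with edgeR 4.0.16 under R 4.3.3 (quasi-likelihood, robust, TMM scaling, filterByExpr by group, 12 groups and batch), p adjusted by Benjamini-Hochberg over 25420 genes for each of 15 comparisons, threshold 0.05. Intervals are 95%. CPM are TMM-scaled, log2 CPM use a prior count of 2, and correlations use deviations from group means within batch. The script was tested on simulated data with known changes. Alternatives were limma 3.58.1 (voom with quality weights), DESeq2 1.42.0, other scaling and filters, libraries left out and a GC covariate. Members and gene lists were chosen with earlier results of these data known. Named were all members, up to 4 passing genes of a list by p (for the mean of the 6 arms the gene of smallest p), and the 12 highest and 8 lowest genes by likeness. Nkx6-2, Omg and Rtn4r each stand in 2 lists. Some genes that this rule names are not reported here.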

Additional observations from a re-analysis of the deposited data

Results flagged for a closer look

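In groups of 4 to 10 libraries of a batch, 10 of 99 sets of values had a highest or lowest library far from the rest by Dixon's criterion. For a single set chance gives about 1 in 20. The 9 genes share their libraries and moved together, so the sets are not independent, and an excess over chance was not tested. Female D2 control library 17906 was low in 3 genes, with 62.9 CPM of Mag (the next library had 127), 174 CPM of Cnp (next 320) and 9.43 CPM of Opalin (next 18.8). Male D1-D2 control library 19220 was low in the basic protein genes, with 709 CPM of Mbp (next 1103) and 217 CPM of Mobp (next 446). Male D2 targeted library 18718 was low in Cnp, with 289 CPM (next 404), and in Opalin, with 22.9 CPM (next 34.6), among the 4 targeted libraries of batch 1. Male D1 control library 17789 was high in Mbp, with 1517 CPM (next 759). Batch 2 male D2 control library 3619 was high in Mbp, with 562 CPM (next 452), and male D1-D2 control library 19511 was high in Mog, with 79.2 CPM (next 54.0).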

How the results depend on the processing

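No paired analysis was possible because library numbers are not shared between groups. In each of the 6 arms, over their mean and for the differences of effects, 0 of 9 members passed under every alternative, limma and DESeq2 included. The count of 2 members between female and male controls was 1 with no low count filter, 0 with no batch term, 1 with limma-voom and 0 with the GC covariate (added after seeing the data), and 2 to 3 when a male D1 control or male D1-D2 targeted library was left out. Mag lost its call without male D1 control 18383 (0.32) and Aspa without 17789 (-0.20), and Mag also under RLE scaling (0.33) and DESeq2 (0.33), where Opalin passed (-0.36 in both). Cnp passed without library 17906 (0.30), an alternative added after seeing the data. Between male D1-D2 and D1 controls the count of 0 was 1 without library 17906 (added) and 3 with limma-voom (Cnp 0.66, Mobp 0.76, Mag 0.65). Between male D2 and D1 controls it was 5 with no batch term. The 2 measures passing with Mog were 1 without the 4 libraries dominated by 10 genes and 5 with the GC measure regressed out (added). Between batches the count was 5 under all 17 alternatives. Over all genes, the 16 that passed in the male D2 arm were 427 with no batch term, 122 with no low count filter, 5 with DESeq2 and 0 with limma-voom, and the 2567 between male D1-D2 and D1 controls were 8904 with limma-voom. The causes were not tested. Groups of 4 libraries and counts as low as 7 limit what could be seen in Aspa and Opalin.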
